A study of Rattus norvegicus with 12 samples.

Results

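Cell cycle and DNA replication genes were followed by RNA sequencing in the rat, in hematoma from defects cut into the femur and in pieces of intact femur. The set was given as 46 gene symbols, of which 44 could be found among the 17379 features of the files, and reads were summed over the RefSeq transcripts of each symbol. It holds 9 genes of G1 and the step into S phase, 5 inhibitors of cyclin-dependent kinases, 12 genes of S phase (11 in the files) and 20 genes of mitosis (19 in the files). Top2a and Mcm5 were not analysed here. All 44 genes passed the filter on low counts in both fits described below.

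The groups were nonunion (hematoma of a 5.0 mm femoral defect), delayed (hematoma of a 1.5 mm defect), normal (hematoma of a 0.5 mm defect, the size that heals) and preOP (untreated femur, the piece cut out when a 5.0 mm defect was made), with 3 libraries in each. All came from male SAS Fischer rats of 200 to 225 g, and no transgene or drug was part of the design. The labels give no day of harvest, do not tie the preOP pieces to the nonunion hematomas, and do not say whether the 3 libraries of a group come from separate animals. The p-values therefore measure the spread between samples, which may in part be technical. Healing is named by defect size, so it is a property of the model and was not measured in these libraries.

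A cell enters the cycle in G1, when D cyclins with Cdk4 or Cdk6, and then E cyclins with Cdk2, phosphorylate the retinoblastoma protein and free E2F factors to switch on the genes of S phase. Inhibitors of the Cip/Kip family (Cdkn1a, Cdkn1b, Cdkn1c) and of the Ink4 family (Cdkn2a, Cdkn2b) hold these kinases back, and Cdkn1a is a classic target of p53. In S phase the Mcm helicase is loaded at origins by Cdc6 and started with Cdc45, while Pcna clamps the polymerase to DNA and Rrm1, Rrm2 and Tyms supply nucleotides. Cyclins A and B with Cdk1 then drive mitosis, in which Bub1, Bub1b and Cdc20 control the spindle checkpoint and kinases of the Aurora and Polo families and motor proteins build and split the spindle. Bone marrow is a tissue of constant division, above all of erythroid and granulocyte precursors, and a healing defect is known for a phase in which mesenchymal cells divide before they form cartilage and bone.

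Library totals ran from 16808993 to 24325162 estimated reads. Ribosomal RNA took 72.2% of the reads of library nonunion 2 and 0.159% to 1.74% in the other 11 libraries, so that 6770159 reads remained in nonunion 2. In the normal files the effective length of a transcript fell short of its full length by a median of 157 to 192 bases. Elsewhere the shortfall was 194 to 255 bases. Whether this marks a batch is not known. If it does, batch and group cannot be told apart in any comparison with normal. Markers of osteoblasts were found with all 8 listed genes in each group, at summed levels of 2252 to 2511 CPM (read counts scaled by library size) in preOP femur. Erythroid precursor markers (10 of the 12 listed genes are in the files, and all 10 had reads in each group) summed to 125 to 165 CPM in nonunion, 141 to 409 CPM in delayed and 108 to 324 CPM in normal, against 9547 to 14508 CPM in preOP.

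Promoter windows of RefSeq (assembly GRCr8) were matched by symbol for 31 of the 44 genes. Each window holds 300 bases, from 250 before the gene start to 50 after it. On both strands the letters TTTGAA or TTCGAA (the cell cycle homology region, CHR), CCAAT, and TTTGGCGC, TTTCGCGC, TTTCCCGC or TTTGCCGC (forms of the E2F site) were searched. CHR letters stood in 10 of 15 mitotic promoters (66.7%), against 19.7% of all 33469 windows. CCAAT stood in 12 of the 15 (80%), against 37.5% of all windows, and both stood together in 9 (60%), against 7.95% of all windows. E2F letters stood in 5 of 8 S phase promoters (62.5%), against 2.14% of all windows. Such a match describes letters and is no measurement of binding. The sequences that follow are the 250 bases before the start of 6 genes on which the results turn: Mki67 and Ccnb2, the mitotic genes that differed most from preOP in nonunion and delayed, Cdk1 and Cdc20, those that differed least in normal, and Tyms and Mcm7, S phase genes with E2F letters. They run 5′ to 3′ on the strand of the gene, and capitals mark the searched letters, which overlap in Mki67 (CHR with CCAAT on the other strand) and in Mcm7 (E2F with CCAAT). Windows lie at chr1:199952594-199952843 (minus strand), chr8:79981659-79981908 (minus), chr20:19265043-19265292 (plus), chr5:137255800-137256049 (minus), chr9:120776084-120776333 (minus) and chr12:22163179-22163428 (minus).
Mki67: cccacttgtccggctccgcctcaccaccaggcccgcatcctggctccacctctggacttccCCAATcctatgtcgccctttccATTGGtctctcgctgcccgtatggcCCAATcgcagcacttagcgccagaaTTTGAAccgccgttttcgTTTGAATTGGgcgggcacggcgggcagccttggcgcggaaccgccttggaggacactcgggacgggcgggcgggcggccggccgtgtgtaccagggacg
Ccnb2: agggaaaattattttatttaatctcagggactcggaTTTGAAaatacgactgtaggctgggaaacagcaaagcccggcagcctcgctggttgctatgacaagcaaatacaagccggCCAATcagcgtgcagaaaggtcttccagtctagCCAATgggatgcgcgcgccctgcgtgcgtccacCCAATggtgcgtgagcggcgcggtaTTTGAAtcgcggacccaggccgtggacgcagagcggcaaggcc
Cdk1: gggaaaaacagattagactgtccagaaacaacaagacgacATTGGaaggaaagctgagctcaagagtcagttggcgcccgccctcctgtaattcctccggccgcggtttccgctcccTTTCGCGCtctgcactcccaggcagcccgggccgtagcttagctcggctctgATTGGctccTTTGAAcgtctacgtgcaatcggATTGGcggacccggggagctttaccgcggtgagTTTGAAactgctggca
Cdc20: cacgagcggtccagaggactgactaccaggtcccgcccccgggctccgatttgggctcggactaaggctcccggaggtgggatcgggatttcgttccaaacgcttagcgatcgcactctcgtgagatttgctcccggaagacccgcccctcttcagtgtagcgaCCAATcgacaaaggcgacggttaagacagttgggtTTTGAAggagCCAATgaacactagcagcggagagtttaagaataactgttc
Tyms: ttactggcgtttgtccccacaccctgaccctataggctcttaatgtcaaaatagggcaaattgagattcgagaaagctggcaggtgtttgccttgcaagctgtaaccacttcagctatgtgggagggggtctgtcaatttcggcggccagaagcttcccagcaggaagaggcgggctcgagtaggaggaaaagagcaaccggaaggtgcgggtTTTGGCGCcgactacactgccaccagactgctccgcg
Mcm7: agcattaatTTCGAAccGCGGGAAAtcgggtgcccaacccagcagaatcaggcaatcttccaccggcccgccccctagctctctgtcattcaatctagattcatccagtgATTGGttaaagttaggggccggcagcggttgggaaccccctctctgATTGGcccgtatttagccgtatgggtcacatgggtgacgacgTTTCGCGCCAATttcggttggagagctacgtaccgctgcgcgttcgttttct

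Each hematoma was first set against preOP femur, which asks how the tissue in the defect differs from the bone it replaces. Tests were edgeR quasi-likelihood F-tests over all 12846 features of 1 fit of 12 libraries, and a gene counts as called where the p adjusted by Benjamini-Hochberg was below 0.05. Called lower in all 3 hematomas were 5 of 9 genes of G1, 1 of 5 inhibitors, 6 of 11 genes of S phase and 9 of 19 of mitosis. Ccnd1, Cdkn1a and Cdkn2a were called higher in all 3, where Cdkn2a passed the filter on low counts only through its reads in normal. The share of all features called in all 3 was not computed, so these counts have no background to be read against. Nonunion hematoma had 3 higher and 29 lower calls among the 44 genes, where 28.4% of all features were called (13.5% higher, 14.9% lower). Delayed hematoma had 3 higher and 31 lower calls, where 28.2% of all features were called (12.6% higher, 15.6% lower). Normal hematoma had 4 higher and 21 lower calls, where 42.6% of all features were called (20.5% higher, 22.1% lower). The 3 comparisons share the preOP libraries. The median log2 fold change of the 44 genes was -1.59 in nonunion, -1.78 in delayed and -1.14 in normal. Over all features it was -0.0020 in nonunion, -0.03 in delayed and -0.09 in normal. In bulk tissue, fewer cells of a type and less RNA per cell cannot be told apart.

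Leaving out a library left fewer lower calls, apart from leaving out nonunion 2. The count in nonunion was 23, 29 and 21 without nonunion 1, 2 and 3, and 14, 14 and 15 without preOP 1, 2 and 3. In delayed it was 15, 16 and 16 without delayed 1, 2 and 3, and 16 without any of preOP 1, 2 or 3. In normal it was 11, 11 and 12 without normal 1, 2 and 3, and 10, 11 and 13 without preOP 1, 2 and 3. Over all features these fits called 17.9% to 32.4% in nonunion, 17.6% to 30.9% in delayed and 30.4% to 37.1% in normal. Calls that held in each of these 6 fits numbered 16 of 32 in nonunion, 15 of 34 in delayed and 13 of 25 in normal. Ccnd1, Ccnd3, Ccne1, Ccne2, Cdk2, Cdkn1a, Cdc6, Tyms and Mki67 were among them in each hematoma. The others were Cdkn1b, Cdkn2a, Mcm7, Aurka, Ccnb2, Kif11 and Nusap1 in nonunion, Cdk6, Mcm2, Mcm4, Mcm7, Ccnb2 and Kif11 in delayed, and Cdk6, Cdkn1b, Cdkn2a and Aurka in normal. Every call against preOP that is given below and not listed here was lost in at least 1 of those fits. Lost in all 6 were Aurka, Bub1, Bub1b, Ccna2, Cdc45, Cdkn1b, E2f1, Kif23, Mcm3, Mcm6, Rrm2, Tpx2 and Ube2c in delayed. In normal Bub1, Bub1b, Ccna2, Ccnb2, Kif23, Mcm3, Nusap1 and Rrm1 were lost in all 6, and no call in nonunion was. A fit of the nonunion and preOP libraries alone called 13 genes lower in nonunion. The same kind of fit called 38 lower in delayed, with Aurkb, Ccnb1, Cdc20, Cdk1, Hmmr, Kif20a and Plk1 gained. In normal it called 30 lower, with Aurkb, Ccnb1, Cdc45, Kif20a, Mcm2, Mcm6, Pcna, Rrm2 and Tpx2 gained, and 6 higher, with Cdkn1c and Cdkn2b gained. Over all features these fits of 2 groups called 29.6% in nonunion, 34.9% in delayed and 56.5% in normal. Without nonunion 2 the median of the 44 genes in nonunion was -0.99.

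**Figure D1:**
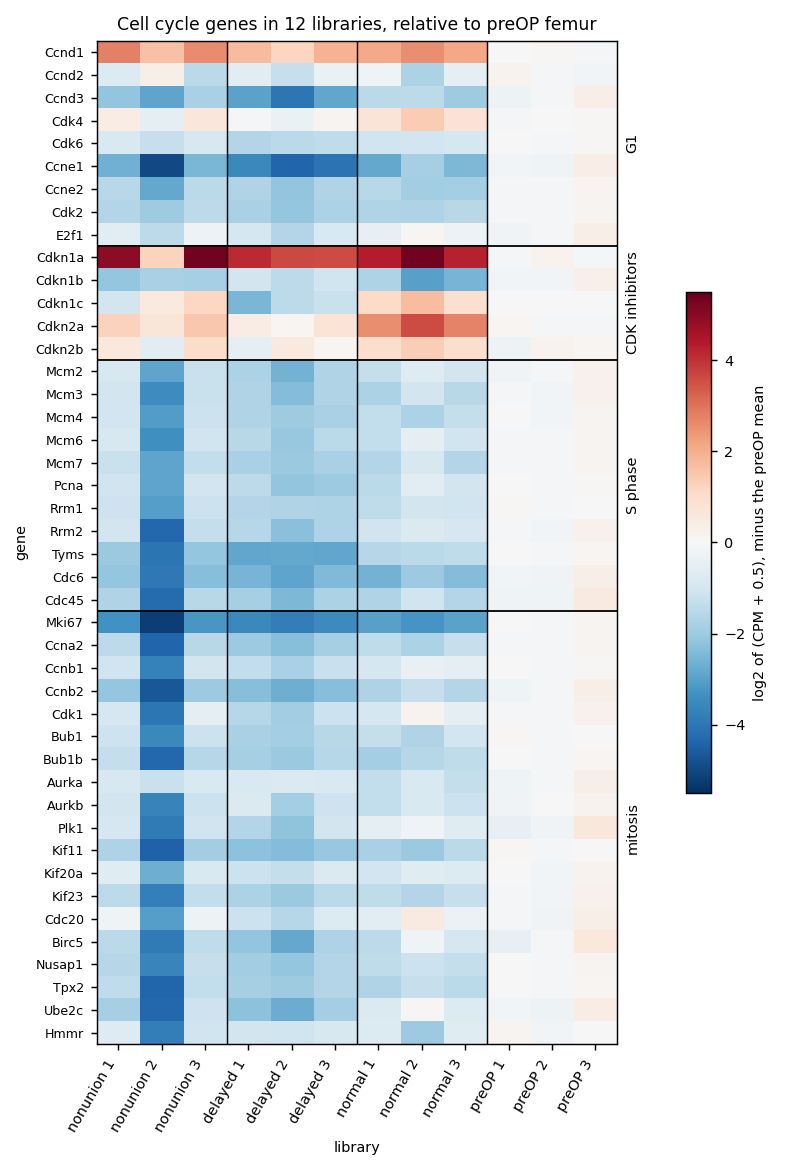
Heat map of the 44 genes (rows, by class) in the 12 libraries (columns), coloured by log2 of (CPM + 0.5) minus the mean of the 3 preOP libraries. Rows of S phase and mitosis are mostly blue in the hematomas and darkest in nonunion 2 (apart from Aurka), with Cdc20, Cdk1 and Ube2c of normal 2 at or above the preOP mean, whereas Ccnd1, Cdkn1a and Cdkn2a are red.

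Genes of G1 went both ways. Of the 9, 1 was called higher and 5 lower in nonunion, 1 higher and 6 lower in delayed, and 2 higher and 5 lower in normal. Ccnd1, the D cyclin that many growth factors induce, had 170.3, 76.1 and 151 CPM in nonunion, 84.2, 57.3 and 95.1 CPM in delayed and 106, 146 and 111 CPM in normal, against 24.9, 25.5 and 23.9 CPM in preOP. Every hematoma library lay above every preOP library. Ccnd1 had log2 fold changes against preOP of 2.42 in nonunion (SE 0.32, edgeR adjusted p = 0.00051), 1.67 in delayed (SE 0.31, edgeR adjusted p = 0.0028) and 2.29 in normal (SE 0.32, edgeR adjusted p = 0.00039).

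Ccnd3, the D cyclin prominent in blood-forming cells, had 95.5, 58.4 and 127 CPM in nonunion, 55.9, 27.5 and 60.3 CPM in delayed and 156, 159.6 and 113 CPM in normal, against 361, 406 and 571 CPM in preOP. Its hematoma libraries all lay below the preOP libraries, and delayed 2 was the lowest. Ccnd3 had log2 fold changes against preOP of -2.25 in nonunion (SE 0.38, edgeR adjusted p = 0.0017), -3.22 in delayed (SE 0.39, edgeR adjusted p = 0.00034) and -1.64 in normal (SE 0.37, edgeR adjusted p = 0.005). Ccnd2, the remaining D cyclin, was not called in any of the 3 comparisons, with log2 fold changes of -0.47, -0.73 and -0.74 in nonunion, delayed and normal.

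Ccne1, the E cyclin that activates Cdk2 at the start of S phase, had the lowest fold change of the 9 G1 genes in each comparison. It had 20.8, 3.70 and 22.4 CPM in nonunion, 10.9, 5.98 and 7.42 CPM in delayed and 17.995, 36.9 and 23.03 CPM in normal, against 119, 112 and 169 CPM in preOP. Groups did not overlap with preOP, and the lowest level was in nonunion 2. Ccne1 had log2 fold changes against preOP of -3.07 in nonunion (SE 0.57, edgeR adjusted p = 0.0029), -4.04 in delayed (SE 0.59, edgeR adjusted p = 0.00083) and -2.36 in normal (SE 0.55, edgeR adjusted p = 0.0061). Without nonunion 2 the value in nonunion was -2.46 (adjusted p = 0.0014).

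Ccne2, the sister E cyclin, fell to 30.7 ± 13.3 CPM in nonunion, 30.8 ± 6.01 CPM in delayed and 32.1 ± 4.99 CPM in normal, against 110.3 ± 10.7 CPM in preOP (SD, n = 3 each). Its log2 fold changes were -1.84 in nonunion (SE 0.33, edgeR adjusted p = 0.0024), -1.84 in delayed (SE 0.33, edgeR adjusted p = 0.0023) and -1.78 in normal (SE 0.33, edgeR adjusted p = 0.0018). Cdk2, the kinase partner of both E cyclins, fell to 28.4 ± 5.37 CPM in nonunion, 24.2 ± 3.39 CPM in delayed and 29.2 ± 2.11 CPM in normal, against 90.9 ± 9.67 CPM in preOP (SD, n = 3 each). The log2 fold changes of Cdk2 were -1.67 in nonunion, -1.91 in delayed and -1.64 in normal, and it was called in each.

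The 2 kinases that bind D cyclins differed from each other. Cdk6 was called lower in each hematoma, with log2 fold changes of -1.02 in nonunion, -1.61 in delayed and -1.09 in normal. Cdk4 had 173, 90.9 and 201 CPM in nonunion, 125, 101 and 147 CPM in delayed and 214, 343 and 229 CPM in normal, against 127, 129.7 and 137 CPM in preOP. It was called higher in normal, at 1.00 (SE 0.31, edgeR adjusted p = 0.023), and not in nonunion (0.24) or delayed (-0.08). E2f1, the activating E2F that G1 kinases release, was called lower in delayed alone, at -1.15 (SE 0.34, edgeR adjusted p = 0.025), with values of -0.72 in nonunion and -0.22 in normal.

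**Figure D2:**
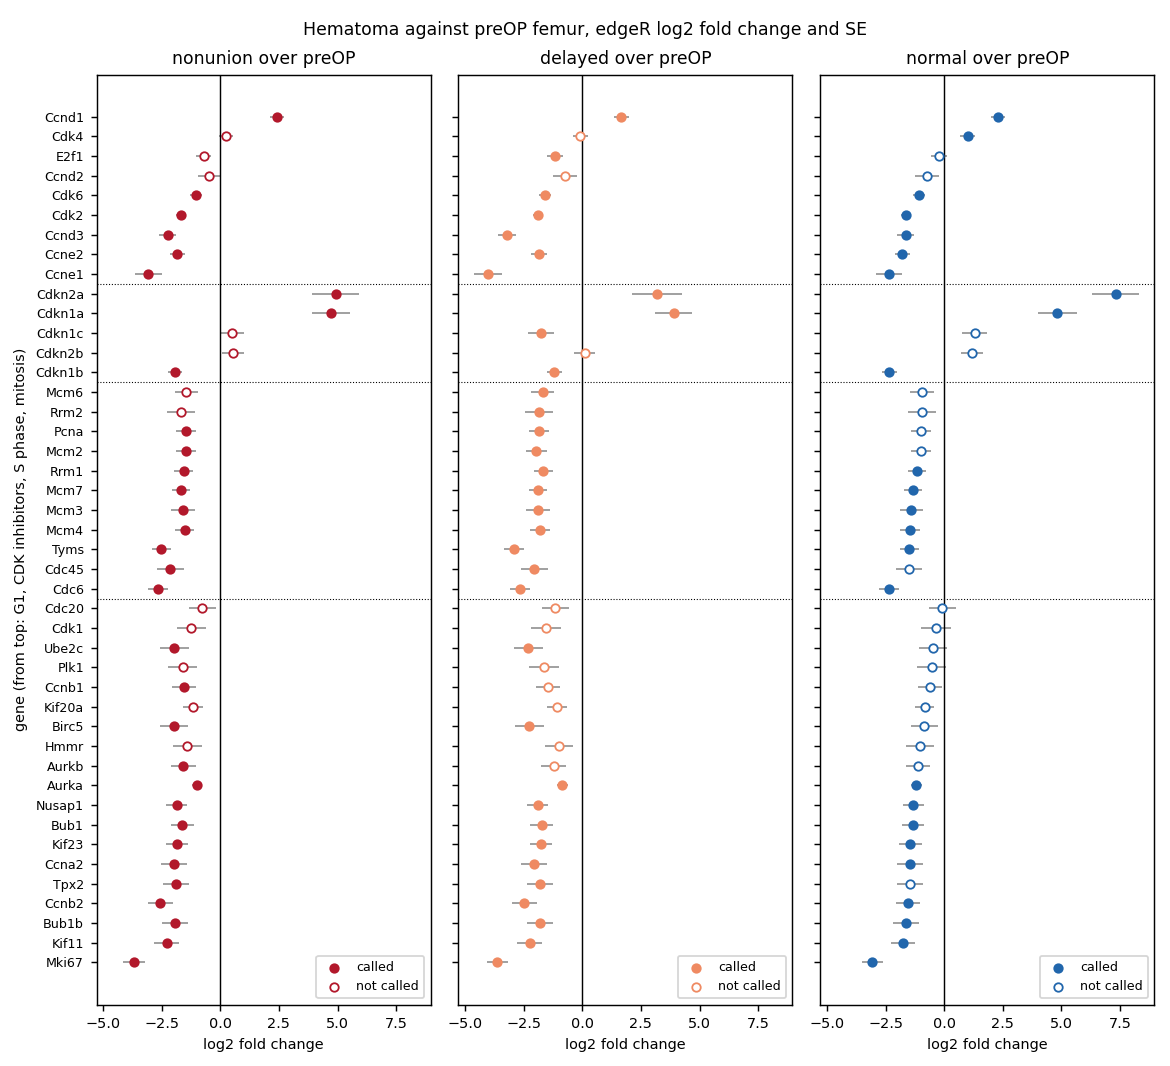
Log2 fold change against preOP (x axis, tested hematoma over preOP) for the 44 genes (y axis, by class) in nonunion, delayed and normal hematoma, with bars of 1 SE and filled points for called genes. S phase and mitosis lie left of 0 in each panel, and the position of Cdkn2a depends on a prior count because preOP held 1 read in all.

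Of the 5 inhibitors, 2 were called higher in each hematoma and Cdkn1b was called lower in each. Cdkn1a, which encodes p21, had 177, 12.9 and 233 CPM in nonunion, 98.96, 72.6 and 68.9 CPM in delayed and 117, 228 and 110.0 CPM in normal, against 4.88, 6.13 and 5.05 CPM in preOP. It was far lower in nonunion 2 than in the other 8 hematoma libraries, yet still above the preOP libraries. Cdkn1a had log2 fold changes against preOP of 4.72 in nonunion (SE 0.82, edgeR adjusted p = 0.0021), 3.90 in delayed (SE 0.79, edgeR adjusted p = 0.0045) and 4.82 in normal (SE 0.82, edgeR adjusted p = 0.0012). Without nonunion 2 the value in nonunion was 5.42 (adjusted p = 4.5e-05).

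Cdkn2a, which encodes the Ink4a and Arf proteins, had 19, 2 and 23 reads in nonunion, 5, 1 and 9 reads in delayed and 50, 94 and 65 reads in normal, against 1, 0 and 0 reads in preOP. Pooled over libraries and corrected for depth, its ratio to preOP was 45.4 in nonunion (exact binomial 95% interval 7.73 to 1832), 12.3 in delayed (1.90 to 519) and 206 in normal (36.6 to 8181). These intervals cover counting error only. It was called in each comparison, with edgeR adjusted p = 0.0048 in nonunion, 0.044 in delayed and 0.00038 in normal. In the fits of delayed and preOP alone and of nonunion and preOP alone it fell below the filter on low counts. The normal libraries, where it was highest, thus brought it into the fit of all 12 libraries. Its p-values there are given as a description. In delayed the call was lost without delayed 1 (adjusted p = 0.066) and without delayed 3, preOP 2 or preOP 3 (0.13 in each), and with no filter (0.052), limma-voom (0.07) or the replicate block (0.079).

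Cdkn1b, which encodes p27, had 49.8, 64.7 and 61.3 CPM in nonunion, 110.3, 80.3 and 104 CPM in delayed and 67.9, 27.9 and 37.5 CPM in normal, against 203, 202 and 267 CPM in preOP. No hematoma library reached the lowest preOP level, and delayed hematoma lay above the other 2 hematoma groups. Cdkn1b had log2 fold changes against preOP of -1.93 in nonunion (SE 0.32, edgeR adjusted p = 0.0016), -1.19 in delayed (SE 0.31, edgeR adjusted p = 0.016) and -2.33 in normal (SE 0.32, edgeR adjusted p = 0.0004). In delayed its call was lost in each fit that left out 1 delayed or preOP library, with adjusted p of 0.055, 0.089 and 0.073 without delayed 1, 2 and 3, and 0.067, 0.07 and 0.063 without preOP 1, 2 and 3.

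Cdkn1c, which encodes p57, was called lower in delayed, at -1.76 (SE 0.54, edgeR adjusted p = 0.032), while nonunion (0.50) and normal (1.30) were not called. That call was lost without delayed 1 (adjusted p = 0.13), delayed 2 (0.074), preOP 1 or preOP 2 (0.095 each) and preOP 3 (0.072). Cdkn2b, which encodes p15, was not called in any, with log2 fold changes of 0.52 in nonunion, 0.10 in delayed and 1.20 in normal.

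The 11 S phase genes had negative log2 fold changes in all 3 comparisons. Calls numbered 9 in nonunion, 11 in delayed and 6 in normal, all of them lower. Summed over the class, S phase genes stood at 790 ± 482 CPM in nonunion, 673 ± 115 CPM in delayed and 1097 ± 199 CPM in normal, against 2454 ± 247 CPM in preOP (SD, n = 3 each). Among the called genes of the class, Cdc6 and Tyms had the 2 lowest fold changes in each hematoma.

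Cdc6, which loads the helicase, had 24.5, 6.63 and 20.6 CPM in nonunion, 18.003, 14.1 and 19.9 CPM in delayed and 17.3, 26.8 and 20.3 CPM in normal, against 97.3, 95.4 and 136 CPM in preOP. The preOP libraries stood well apart, and nonunion 2 was the lowest of the hematomas. Cdc6 had log2 fold changes against preOP of -2.65 in nonunion (SE 0.42, edgeR adjusted p = 0.0013), -2.66 in delayed (SE 0.42, edgeR adjusted p = 0.0012) and -2.35 in normal (SE 0.41, edgeR adjusted p = 0.0014). Tyms, the enzyme that makes thymidylate, had 19.2, 4.47 and 17.95 CPM in nonunion, 10.7, 10.8 and 10.8 CPM in delayed and 26.9, 28.7 and 30.01 CPM in normal, against 78.6, 75.9 and 85.9 CPM in preOP. Its delayed libraries lay within a narrow range, below all 3 normal libraries. Tyms had log2 fold changes against preOP of -2.51 in nonunion (SE 0.42, edgeR adjusted p = 0.0016), -2.90 in delayed (SE 0.42, edgeR adjusted p = 0.0008) and -1.49 in normal (SE 0.40, edgeR adjusted p = 0.012).

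Cdc45, a part of the active helicase, had 16.97, 2.47 and 18.4 CPM in nonunion, 15.1, 9.59 and 16.3 CPM in delayed and 16.8, 25.5 and 17.8 CPM in normal, against 45.9, 46.9 and 76.1 CPM in preOP. It was called lower in nonunion (-2.14) and delayed (-2.04), and had -1.49 in normal. The nonunion value was -1.51 (adjusted p = 0.0084) without nonunion 2, and its call was lost without preOP 3 (0.063). The delayed call was lost in each fit without 1 delayed or preOP library, with adjusted p of 0.067, 0.082 and 0.067 without delayed 1, 2 and 3, and 0.058, 0.062 and 0.076 without preOP 1, 2 and 3.

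The helicase subunits moved within a narrow range. Mcm2, Mcm3, Mcm4, Mcm6 and Mcm7 had log2 fold changes of -1.46, -1.58, -1.53, -1.45 and -1.66 in nonunion, where Mcm6 was not called. In delayed they had -1.96, -1.87, -1.80, -1.69 and -1.87, and all were called. In normal they had -0.996, -1.40, -1.46, -0.94 and -1.34, where Mcm2 and Mcm6 were not called. Mcm7, whose promoter holds E2F letters as printed above, had 90.05, 27.4 and 80.2 CPM in nonunion, 60.99, 50.7 and 59.5 CPM in delayed and 67.2, 114 and 67.5 CPM in normal, against 198, 200.0 and 229.7 CPM in preOP. The preOP range was not reached by any hematoma library.

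Rrm1 and Rrm2 encode the subunits of ribonucleotide reductase. Rrm2, the regulated subunit, had 251, 24.97 and 203 CPM in nonunion, 172, 102 and 155 CPM in delayed and 237, 295 and 268 CPM in normal, against 479.5, 463 and 593 CPM in preOP. It was called in delayed only (-1.84 (SE 0.61, edgeR adjusted p = 0.042)), with log2 fold changes of -1.68 in nonunion and -0.94 in normal. Rrm1 was called in all 3 hematomas, with log2 fold changes of -1.56 in nonunion, -1.66 in delayed and -1.16 in normal. Pcna, the polymerase clamp, was called in nonunion (-1.47) and delayed (-1.85) and had -0.97 in normal.

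The 19 genes of mitosis also had negative log2 fold changes in all 3 comparisons. Calls numbered 14 in nonunion, 12 in delayed and 9 in normal, all of them lower. The class summed to 886 ± 554 CPM in nonunion, 901 ± 140 CPM in delayed and 1362 ± 146 CPM in normal, against 4256 ± 457 CPM in preOP (SD, n = 3 each).

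Mki67, the Ki-67 protein that coats mitotic chromosomes and marks dividing cells, had the lowest fold change of the class in each hematoma. It had 183, 50.2 and 202 CPM in nonunion, 158, 135 and 163 CPM in delayed and 234, 194 and 242 CPM in normal, against 1822, 1725 and 2052 CPM in preOP. Each preOP library lay several times above the highest hematoma library. Mki67 had log2 fold changes against preOP of -3.68 in nonunion (SE 0.46, edgeR adjusted p = 0.00041), -3.62 in delayed (SE 0.46, edgeR adjusted p = 0.0004) and -3.06 in normal (SE 0.45, edgeR adjusted p = 0.00053).

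Ccnb2, a B cyclin, had 42.9, 6.94 and 47.8 CPM in nonunion, 37.4, 29.03 and 37.5 CPM in delayed and 57.6, 78.5 and 61.3 CPM in normal, against 161, 182 and 235 CPM in preOP. All hematoma libraries lay below preOP, with nonunion 2 the lowest. Ccnb2 had log2 fold changes against preOP of -2.56 in nonunion (SE 0.54, edgeR adjusted p = 0.0054), -2.47 in delayed (SE 0.53, edgeR adjusted p = 0.0061) and -1.55 in normal (SE 0.52, edgeR adjusted p = 0.032). Without nonunion 2 the nonunion value was -1.93 (adjusted p = 0.00065). The call in normal was lost in each fit without 1 normal or preOP library, with adjusted p of 0.09, 0.06 and 0.091 without normal 1, 2 and 3, and 0.07, 0.086 and 0.092 without preOP 1, 2 and 3.

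Kif11, the motor that pushes spindle poles apart, had 57.7, 8.17 and 49.7 CPM in nonunion, 39.5, 35.8 and 44.7 CPM in delayed and 55.4, 45.7 and 68.4 CPM in normal, against 199, 181 and 191 CPM in preOP. Its groups did not overlap with preOP. Kif11 had log2 fold changes against preOP of -2.30 in nonunion (SE 0.53, edgeR adjusted p = 0.0083), -2.25 in delayed (SE 0.52, edgeR adjusted p = 0.0091) and -1.75 in normal (SE 0.52, edgeR adjusted p = 0.019). Without nonunion 2 the nonunion value was -1.67 (adjusted p = 0.00079), and the call in normal was lost without normal 1 (0.053), normal 2 (0.067), preOP 1 (0.063) and preOP 2 (0.056).

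Cdc20 and Cdk1 had the fold changes nearest to 0 in normal. Cdc20, which activates the anaphase-promoting complex, had 59.6, 8.32 and 58.6 CPM in nonunion, 30.7, 23.7 and 41.98 CPM in delayed and 47.4, 101 and 56.2 CPM in normal, against 64.98, 62.2 and 88.6 CPM in preOP. Normal hematoma overlapped with preOP, and normal 2 was the highest of all 12 libraries. Cdc20 had log2 fold changes against preOP of -0.76 in nonunion (SE 0.57, edgeR adjusted p = 0.35), -1.16 in delayed (SE 0.58, edgeR adjusted p = 0.16) and -0.08 in normal (SE 0.57, edgeR adjusted p = 0.92). Cdk1, the kinase that starts mitosis, had 78.9, 8.94 and 103 CPM in nonunion, 50.4, 39.8 and 64.6 CPM in delayed and 76.6, 169.6 and 107 CPM in normal, against 136, 139 and 174 CPM in preOP. Here too normal 2 reached into the preOP range. Cdk1 had log2 fold changes against preOP of -1.23 in nonunion (SE 0.63, edgeR adjusted p = 0.17), -1.54 in delayed (SE 0.64, edgeR adjusted p = 0.096) and -0.35 in normal (SE 0.62, edgeR adjusted p = 0.68).

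Plk1, Kif20a and Hmmr (a kinase, a motor of cell division and a spindle-binding protein) were also not called in any hematoma against preOP, with log2 fold changes of -1.17 to -1.60 in nonunion, -1.01 to -1.63 in delayed and -0.53 to -1.04 in normal. Aurka, the kinase of the spindle poles, moved within a narrow range. It had 65.3, 52.1 and 68.5 CPM in nonunion, 68.5, 68.9 and 67.8 CPM in delayed and 46.8, 67.9 and 48.4 CPM in normal, against 102, 115 and 153 CPM in preOP. Nonunion 2 lay close to the other nonunion libraries for this gene, unlike the rest of the class. Aurka had log2 fold changes against preOP of -0.99 in nonunion (SE 0.23, edgeR adjusted p = 0.008), -0.85 in delayed (SE 0.23, edgeR adjusted p = 0.016) and -1.18 in normal (SE 0.23, edgeR adjusted p = 0.0022).

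The checkpoint kinases Bub1 and Bub1b, cyclin A2 (Ccna2), the motor Kif23 and the spindle protein Nusap1 were called lower in each hematoma, with log2 fold changes from -2.05 (Ccna2, delayed) to -1.31 (Nusap1, normal). Tpx2, which activates Aurka, and Birc5 and Ube2c, a subunit of the Aurkb complex and the ubiquitin-conjugating enzyme of the anaphase-promoting complex, were called lower in nonunion and delayed. Ube2c had log2 fold changes of -1.97 in nonunion, -2.31 in delayed and -0.46 in normal. Ccnb1, the main B cyclin, and Aurkb, the kinase of the chromosomal passenger complex, were called lower in nonunion (-1.53 and -1.57) and not in delayed (-1.45 and -1.23) or normal (-0.61 and -1.12). Mcm3 of S phase and Ccna2, Bub1, Bub1b, Kif23, Nusap1, Tpx2, Birc5, Ube2c, Ccnb1 and Aurkb were followed in nonunion. Without nonunion 2 their values were between -1.37 and -0.90, with each still called. In the fit of the nonunion and preOP libraries alone each of them lost its call.

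Markers of other cell types moved with these differences. Besides the erythroid markers given above, granulocyte precursor markers (7 of 9 listed genes in the files) summed to 4.59 to 14.4 CPM in nonunion, 8.25 to 66.8 CPM in delayed and 325 to 2081 CPM in normal, against 2738 to 3200 CPM in preOP. B lymphocyte precursor markers (8 of 10 in the files) summed to 14.0 to 114 CPM in nonunion, 24.4 to 29.5 CPM in delayed and 10.96 to 39.1 CPM in normal, against 185 to 311 CPM in preOP. Every marker of these lists in the files had reads in each group. Their part in the results against preOP was not tested.

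**Figure D3:**
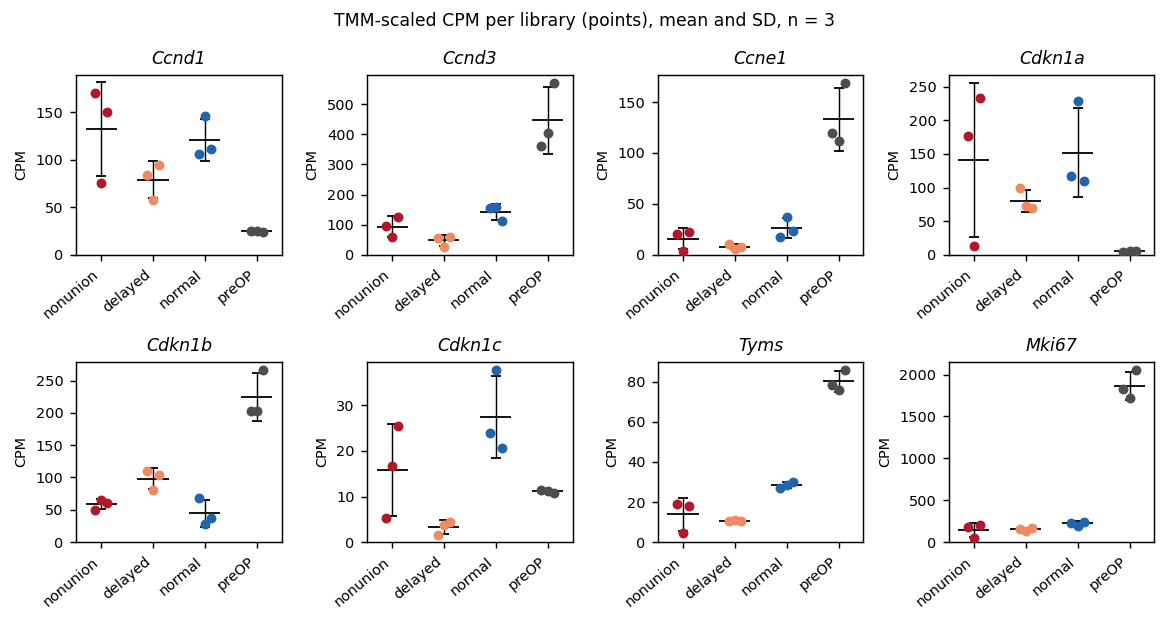
CPM (y axis) of 8 genes in each library (points) by group (x axis), with the mean and SD of 3 libraries. Ccnd1 and Cdkn1a are lowest in preOP, Ccnd3, Ccne1, Cdkn1b, Tyms and Mki67 are highest there, and Cdkn1c is highest in normal and lowest in delayed.

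The hematomas were then compared with each other, which asks whether division genes differ between a defect that heals and those that heal late or not. These tests used 1 fit of the 9 hematoma libraries over 12474 features. Delayed against normal gave 0 higher and 3 lower calls among the 44 genes, where 7.13% of all features were called (2.68% higher, 4.45% lower). The 3 were Ccnd3, Cdkn1c and Cdkn2a. The median log2 fold change was -0.60 over the 44 genes and 0.02 over all features, and 42 of the 44 had a negative one. In 29 genes every delayed library lay below every normal library, and in 1 (Cdkn1b) above, against 20.4% and 16.1% of all features. No S phase or mitotic gene was called by edgeR in the fit of 9 libraries. An unadjusted p below 0.05 was found for 1 of each class, against 3214 of the 12474 features. DESeq2 called 1 S phase gene (Tyms) and no mitotic gene, and limma-voom called none of either class. Over all features DESeq2 called 16.3% and limma-voom 8.88%.

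Cdkn1c had 1.57, 3.82 and 4.52 CPM in delayed, against 23.96, 37.7 and 20.7 CPM in normal. The delayed libraries were all far below the normal ones. Its log2 fold change was -3.06 (SE 0.62, edgeR adjusted p = 0.026). Cdkn2a had 5, 1 and 9 reads in delayed, against 50, 94 and 65 reads in normal, which are 0.192, 0.0516 and 0.363 CPM in delayed, against 2.51, 5.75 and 2.93 CPM in normal. The groups did not overlap, and its log2 fold change was -4.12 (SE 0.76, edgeR adjusted p = 0.02). Its reads in normal also brought it through the filter of this fit. Ccnd3 had 55.9, 27.5 and 60.3 CPM in delayed, against 156, 159.6 and 113 CPM in normal, again without overlap, and a log2 fold change of -1.58 (SE 0.40, edgeR adjusted p = 0.048).

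These 3 calls lie close to the threshold. Ccnd3 lost its call when low counts were kept (adjusted p = 0.052), when replicate numbers were blocked (0.054), when the fit held these 2 groups alone (0.06) and when ribosomal RNA was removed (0.05). The fit of these 2 groups alone called 4 genes lower, which were Cdkn1c, Cdkn2a, Tyms at -1.31 (adjusted p = 0.029) and Ube2c at -1.72 (adjusted p = 0.04). Over all features it called 6.93%. Ccnd3 also lost its call without any single library, at 0.13, 0.12 and 0.1 without normal 1, 2 and 3, and at 0.11, 0.071 and 0.086 without delayed 1, 2 and 3. Cdkn1c likewise lost its call without any single library, at 0.068, 0.08 and 0.067 without normal 1, 2 and 3, and at 0.081, 0.05 and 0.062 without delayed 1, 2 and 3. Cdkn2a was not called without normal 1 (0.052), normal 2 (0.058), normal 3 (0.061) or delayed 1 (0.077). Without nonunion 2 and delayed 2 together, 6 genes were lower (Ccnd3, Ccne1, Cdkn1c, Cdkn2a, Tyms and Ube2c) and 1 higher (Cdkn1b). Over all features that fit called 16.3%, against 7.13% in the fit of 9 libraries.

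Some genes not called in the fit of 9 libraries are given here with their values. Ccne1 had 10.9, 5.98 and 7.42 CPM in delayed, against 17.995, 36.9 and 23.03 CPM in normal. Its log2 fold change was -1.68 (SE 0.61, edgeR adjusted p = 0.13). Ube2c had 21.1, 14.8 and 27.1 CPM in delayed, against 59.3, 107 and 59.5 CPM in normal, and a log2 fold change of -1.84 (SE 0.67, edgeR adjusted p = 0.13). Tyms, at -1.42 (SE 0.47, edgeR adjusted p = 0.1), also did not overlap between the groups. Cdkn1b ran the other way, with 110.3, 80.3 and 104 CPM in delayed, against 67.9, 27.9 and 37.5 CPM in normal, and its value was 1.12 (SE 0.36, edgeR adjusted p = 0.09). DESeq2 called Cdkn1b higher at 1.21 (adjusted p = 0.018) and Tyms lower at -1.34 (adjusted p = 0.04). Cdk4, with 125, 101 and 147 CPM in delayed, against 214, 343 and 229 CPM in normal, had a log2 fold change of -1.07 (SE 0.36, edgeR adjusted p = 0.1). In the S phase and mitosis classes the genes of highest mean CPM over all 12 libraries, preOP included, were Rrm2 and Rrm1, with -0.91 and -0.50, and Mki67 and Tpx2, with -0.58 and -0.35, and none was called.

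Nonunion against normal gave no call among the 44 genes by edgeR, where 2.37% of all features were called (0.89% higher, 1.48% lower). At an unadjusted p below 0.05 there were 4 of the 44, against 2558 of the 12474 features. Limma-voom called none of the 44. Over all features DESeq2 called 10.5% and limma-voom 2.56%. DESeq2 called Cdkn2a, at -2.36 (adjusted p = 0.012), which had 0.751, 0.308 and 0.951 CPM in nonunion, against 2.51, 5.75 and 2.93 CPM in normal and an edgeR log2 fold change of -2.44 (SE 0.70, edgeR adjusted p = 0.1). Of all 44 genes, 7 lay below normal without overlap and 0 above, against 15.5% and 14.1% of all features. The median log2 fold change of the 44 genes was -0.55, against -0.03 over all features, and without nonunion 2 it was -0.04. Ccnd3 (-0.67), Cdk4 (-0.81), Cdkn1b (0.32), Cdkn1a (-0.14), Rrm2 (-0.79), Rrm1 (-0.45), Mki67 (-0.69) and Tpx2 (-0.47), the genes of highest mean CPM in each class over all 12 libraries, were not called.

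Nonunion against delayed gave no call among the 44 genes, and 0% of all features were called by edgeR. Unadjusted p was below 0.05 for 4 of the 44, against 881 of the 12474 features. Limma-voom called none of the 44. Over all features DESeq2 called 1.48% and limma-voom 0%. DESeq2 called Cdkn1c higher, at 2.22 (adjusted p = 0.032). It had 5.26, 16.6 and 25.4 CPM in nonunion, against 1.57, 3.82 and 4.52 CPM in delayed, without overlap, and an edgeR log2 fold change of 2.21 (SE 0.61, edgeR adjusted p = 0.45). Cdk6 also lay above delayed in all 3 nonunion libraries, and Cdkn1b lay below. In all, 2 of the 44 genes lay above and 1 below, against 5.60% and 3.32% of all features. Cdkn1b had 49.8, 64.7 and 61.3 CPM in nonunion, against 110.3, 80.3 and 104 CPM in delayed. Its log2 fold change was -0.80 (SE 0.35, edgeR adjusted p = 0.71). The median over the 44 genes was 0.17, against -0.05 over all features. Without nonunion 2 it was 0.51, without delayed 2 it was -0.0033, and without nonunion 1 or nonunion 3 it was -0.16 and -0.15.

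Markers of bone, cartilage, granulocyte precursors and, in delayed, endothelium moved with the comparisons against normal. Osteoblast markers (8 of 8 in the files) summed to 4281 to 5265 CPM in nonunion and 4195 to 15536 CPM in delayed, against 18238 to 27397 CPM in normal. Chondrocyte markers (7 of 8 in the files) summed to 7.71 to 55.3 CPM in nonunion and 31.2 to 35.4 CPM in delayed, against 311 to 612 CPM in normal, with Matn1 at 0 reads in nonunion and normal. Granulocyte precursor markers, with the ranges given above, were lower in all nonunion and delayed libraries than in normal. Endothelial markers (8 of 8 in the files) summed to 160.3 to 353 CPM in delayed, against 543 to 579 CPM in normal, without overlap. In nonunion they summed to 484 to 1517 CPM. Library delayed 2 had 32800.5 CPM of skeletal muscle markers (7 of 8 in the files), against 157 and 982 CPM in delayed 1 and 3. Their part in these results was not tested.

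Levels of different genes were compared per length, as ratios of deposited TPM (transcript abundance scaled to a fixed total, already divided by transcript length). Ccnd3 made up 50.5, 44.9 and 61.8% of the TPM of the 3 D cyclins in nonunion 1, 2 and 3, 49.4, 42.5 and 48.1% in delayed and 68.1, 67.8 and 61.4% in normal, against 88.9, 91.1 and 93.9% in preOP. All hematoma shares lay below the preOP shares, and all delayed shares below the normal ones. Ccnd1 made up 40.5, 26.7 and 33.2% in nonunion, 33.6, 39.6 and 33.9% in delayed and 21.1, 28.7 and 28.002% in normal, against 2.77, 2.58 and 1.79% in preOP. Nonunion 2 was the hematoma library in which the share of Ccnd2, at 28.3%, was above that of Ccnd1.

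The TPM ratio of Cdkn1a to Cdkn1b was 3.29, 0.186 and 3.53 in nonunion, 0.833, 0.839 and 0.615 in delayed and 1.60, 7.64 and 2.73 in normal, against 0.0224, 0.0282 and 0.0176 in preOP. Cdkn1b was thus the more abundant of the pair in preOP, in all delayed libraries and in nonunion 2, and Cdkn1a in the other 5 libraries. The TPM ratio of Mki67 to Cdc20 was 0.492, 0.986 and 0.554 in nonunion, 0.823, 0.903 and 0.615 in delayed and 0.809, 0.319 and 0.718 in normal, against 4.52, 4.43 and 3.75 in preOP. Against Pcna, the ratio of Mki67 was 0.118, 0.117 and 0.128 in nonunion, 0.131, 0.180 and 0.192 in delayed and 0.203, 0.0937 and 0.156 in normal, against 0.551, 0.542 and 0.604 in preOP. Both ratios separated the preOP libraries from all hematomas.

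**Figure D4:**
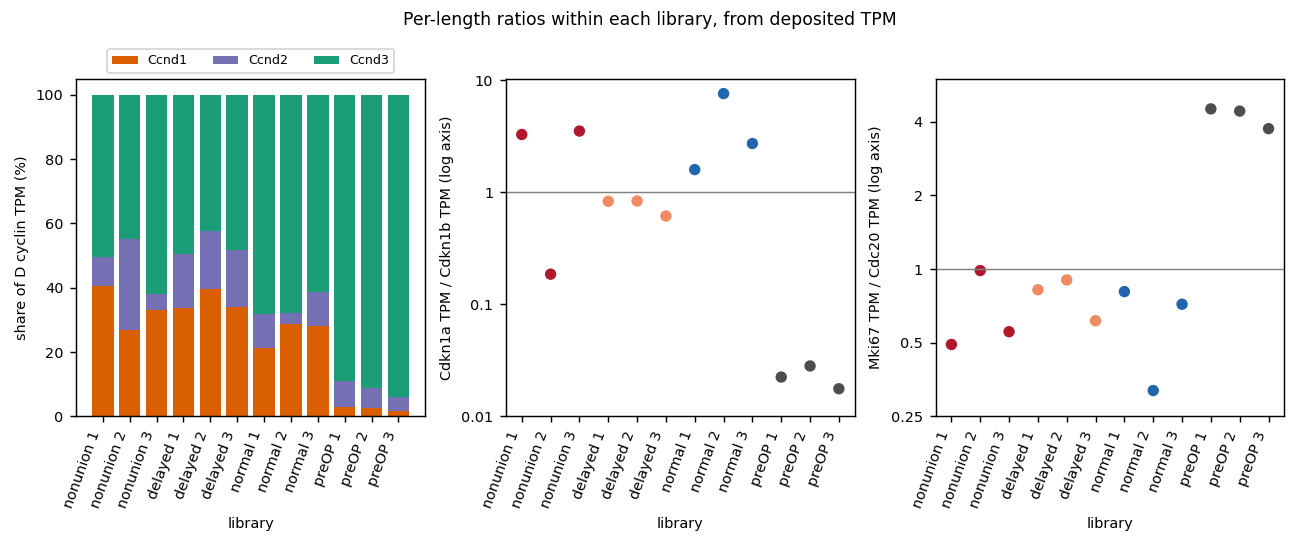
Ratios of deposited TPM within each library (x axis, 12 libraries): the share of each D cyclin in percent (left), Cdkn1a over Cdkn1b (middle, log axis) and Mki67 over Cdc20 (right, log axis). In preOP, Ccnd3 holds 88.9% to 93.9% of D cyclin TPM, and Mki67 over Cdc20 is 3.75 to 4.52, against 0.319 to 0.986 in the hematomas.

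Nonunion 2 stood apart in these genes. In 34 of the 44 genes it had the lowest CPM of the 9 hematoma libraries, against 22.8% of all features. These were 3 of 9 genes of G1, 2 of 5 inhibitors, 11 of 11 genes of S phase and 18 of 19 of mitosis, with Aurka the exception. The mean of nonunion 1 and 3 was 4.03 times the nonunion 2 level in the median S phase gene and 6.54 times in the median mitotic gene, against 1.02 times in the median of all features. For G1 genes this median was 2.05 and for inhibitors 2.76, with Cdkn1a at 15.8. Ccnd2 ran the other way, at 27.3 CPM in nonunion 2, while nonunion 1 had 12.4 CPM and nonunion 3 had 7.45 CPM. The same library had 12002 CPM of adipocyte markers (8 of 8 in the files), while nonunion 1 had 546 CPM and nonunion 3 had 505 CPM. Endothelial markers (8 of 8) summed to 1517 CPM there, to 484 CPM in nonunion 1 and to 819 CPM in nonunion 3. Macrophage markers (8 of 8) summed to 2731 CPM in nonunion 2, to 7758 CPM in nonunion 1 and to 4971 CPM in nonunion 3. The part of its ribosomal RNA or of these markers in the result was not tested.

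**Figure D5:**
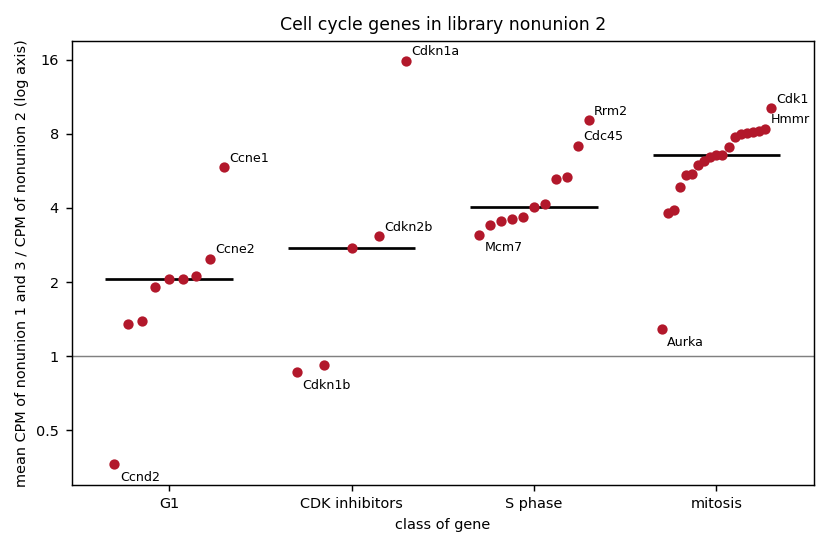
Mean CPM of nonunion 1 and 3 divided by the CPM of nonunion 2 (y axis, log scale) for each gene (points) by class (x axis), with lines at class medians. Genes of S phase and mitosis lie between 3.10 and 10.2, apart from Aurka at 1.28.

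Other genes of the cycle, 84 of a list of 100 found in the files, were read in the same fits. In nonunion against preOP, 3 were called higher and 58 lower, with a median log2 fold change of -1.71. In delayed against preOP there were 4 higher and 61 lower, with a median of -1.84. Normal against preOP gave 3 higher and 38 lower, with a median of -1.24. The lower calls held 23 of 28 replication genes in nonunion, 25 in delayed and 12 in normal, and 26, 26 and 16 of 33 mitotic genes in nonunion, delayed and normal. Cdc25b, a phosphatase that activates Cdk1, had the largest fold change in each hematoma, at -4.00 (SE 0.34, edgeR adjusted p = 8.1e-05) in nonunion, -3.81 in delayed and -4.01 in normal. Dut, which removes dUTP, followed in nonunion (-3.22), and the licensing factor Cdt1 (-3.58) and Dut (-3.47) followed in delayed. Rb1, the retinoblastoma protein itself, was lower in normal against preOP at -2.93 (SE 0.31, edgeR adjusted p = 0.00013).

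The genes called higher on this list were few. Phlda3, an Akt inhibitor induced by p53, had 2.61 in nonunion, 1.91 in delayed and 3.08 in normal, and Gadd45b, a stress-induced gene, had 2.20 in nonunion, 2.25 in delayed and 3.34 in normal. Zmat3, another p53 target, was also called higher in each, and Ccng2, an atypical cyclin linked to arrest, in delayed. Of the 10 p53 and arrest genes tested, 1 was called lower in nonunion, 2 in delayed and 2 in normal. Negative log2 fold changes against preOP were found in 7, 3 and 7 of them. Their median was -0.17 in nonunion, 0.71 in delayed and -0.32 in normal. Between hematomas, delayed against normal called Ccng2 higher at 1.17 (SE 0.24, edgeR adjusted p = 0.027) and Dut lower at -1.51 (SE 0.37, edgeR adjusted p = 0.045). Neither nonunion against normal nor nonunion against delayed gave an edgeR call among the 84. Of these, 6 and 3 had an unadjusted p below 0.05, against 2558 and 881 of the 12474 features. The list was not recomputed with other tools.

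Promoter letters were read against these values as a description. The 9 mitotic genes with both CHR and CCAAT letters had a median log2 fold change of -1.04 in normal against preOP, with a range of -3.06 (Mki67) to -0.08 (Cdc20), so the printed pair of Mki67 and Cdc20 shares both kinds of letters at opposite ends of the class. The 6 mitotic genes with a window but without both had a median of -1.26 and a range of -1.75 to -0.61.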

How the data were processed

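The submitters' processing notes name bcl2fastq 1.8.4, Trimmomatic, FastQC and the quantifier Salmon, and the genome build rn6. Trizol was used for extraction and 1 ug of RNA per library for the Illumina TruSeq kit, per the labels. Each deposited file holds 1 library of 18321 RefSeq transcripts. Its columns, per the file headers, hold estimated (expected) counts of reads without scaling, TPM (scaled to a fixed total after division by effective length) and effective lengths in bases.

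The deposited estimated counts were rounded, then added up over the transcripts of each symbol in a RefSeq table of GRCr8, used for names and promoters. It matched 17367 transcripts to 16425 symbols, and 954 transcripts stayed as single features, for 17379 in all. The 46 genes, their classes and the other lists were chosen with earlier results of these data known. Genes were described by a rule: up to 4 called genes of largest change per class and comparison, or the 2 of highest mean CPM over 12 libraries where fewer than 2 were called, with every gene accounted for by class.

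Tests were quasi-likelihood F-tests of edgeR 4.0.16 in R 4.3.3, with TMM scaling and filterByExpr by group, two-sided. The 9 hematoma libraries were fitted together (12474 features, 6 residual degrees of freedom) and all 12 libraries for comparisons with preOP (12846 features, 8 residual degrees of freedom). CPM are TMM-scaled in the fit of 12. The SE was approximated from the log2 fold change and the square root of F. A library in which a gene has 0 reads is bounded by 3 reads, for counting error only. That is 0.123 to 0.178 CPM before TMM scaling, and 0.115 (delayed 1) to 0.462 CPM (nonunion 2) after it. Alternatives were DESeq2 size factors, DESeq2 1.42.0, limma-voom (limma 3.58.1), no filter, a replicate block, only the groups compared, and leaving out each library. Fits without nonunion 2 and delayed 2 and without ribosomal RNA were added after seeing the data. The method was tested on simulated data. Deposited TPM served only for ratios between genes. Pairs of libraries with identical counts numbered 0.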

Additional observations from a re-analysis of the deposited data

How the results depend on the processing

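Directions of called genes held in the alternatives run. Of the calls against preOP, 15 of 32 in nonunion, 27 of 34 in delayed and 20 of 25 in normal held in all alternatives other than leaving out single libraries, and 2 of 3 did in delayed against normal. Leaving out single libraries gave 14 to 29 lower calls in nonunion against preOP and 15 to 16 in delayed against preOP. It gave 10 to 13 in normal against preOP and 0 to 1 in delayed against normal. Over all features the left-out fits of delayed against normal called 1.38% to 5.73%. Why the counts of lower calls differ from the main fit was not tested. In a fit of its own groups alone, nonunion against preOP had 13 lower calls in place of 29, and the cause was not tested. Cdkn2a was not tested in the fits of nonunion or delayed with preOP alone, since the filter removed it, and is counted there as not held. Without nonunion 2 and delayed 2, delayed against normal had 1 higher and 6 lower calls in place of 0 and 3, and nonunion against preOP had 5 higher calls in place of 3. In these 2 comparisons 16.3% and 41.7% of all features were then called, in place of 7.13% and 28.4%. DESeq2 gave 1 higher call in delayed against normal (Cdkn1b), 1 lower call in nonunion against normal (Cdkn2a) and 1 higher call in nonunion against delayed (Cdkn1c), where edgeR gave 0. Over all features DESeq2 called 16.3%, 10.5% and 1.48% in these comparisons, in that order.

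Signs reversed in uncalled genes alone. In nonunion against normal, leaving out nonunion 2 and delayed 2 gave 0.45 for Cdkn1a, 0.017 for Rrm1 and 0.090 for Tpx2, and leaving out single libraries gave -0.72 to 0.47 for Cdkn1a, -0.73 to 0.034 for Rrm1 and -0.83 to 0.11 for Tpx2. In nonunion against delayed, limma-voom gave -0.42 for Rrm2 and -0.18 for Rrm1, and leaving out nonunion 2 and delayed 2 gave 0.20 for Mki67 and 0.28 for Tpx2. Leaving out single libraries there gave -0.36 to 0.61 for Rrm2, -0.22 to 0.44 for Rrm1, -0.43 to 0.29 for Mki67 and -0.48 to 0.36 for Tpx2. DESeq2 size factors moved the median of all features by up to 0.13 on the log2 scale and leaving out ribosomal RNA by up to 0.21 (delayed against preOP in both).

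The replicate numbers of the titles have no stated origin. Over 18 same-numbered pairs the deviations from group means correlated at -0.17 to 0.18, and 3 of 12 libraries correlated best with their own number, so they were taken to share only a number. With the replicate block, lower calls were 32 in nonunion, 31 in delayed and 20 in normal against preOP, and 2 in delayed against normal. Over all features it called 26.4%, 26.3%, 41.2% and 3.47% in these comparisons, in that order. Rrm2 and Rrm1 in nonunion against delayed had -0.12 and -0.059 with the block.

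Depth limits Cdkn2a most, which rests on 1 to 23 reads a library in nonunion and delayed.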
